A study of Homo sapiens with 20 samples.

Results

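The genes described are AXL, NGFR, EGFR, WNT5A, ZEB1, SOX9, FOSL1, JUN and TEAD1, which mark the dedifferentiated state of melanoma cells, and the measurement is where the cohesin subunits STAG1, STAG2 and SMC1A and the DNA-binding protein CTCF were found by ChIP-seq at these 9 genes. The members are all peaks of the 16 deposited peak lists that lie in one of the genes or within 10 kb of it, with gene bounds from GENCODE on hg19. They numbered 1274 of 1600648 peaks. Overlapping peaks of different lists were joined into sites, which gave 177 sites at the 9 genes of 224475 sites in all. No peak height or change was used to choose them. RNA was not measured in these libraries, so whether M14 cells express these genes, and whether STAG2 knockdown changed that, cannot be read from the lists.

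The cells were M14, an established human melanoma line that carries a doxycycline-inducible shRNA against STAG2 and was kept under puromycin, per the labels of the first set of libraries. WT cells received no doxycycline and STAG2-KD cells received it for 5 days, which the labels give for replicate 1 and only the study's methods for replicate 2. All groups carry the shRNA construct, a single hairpin per the study's methods, and no group received doxycycline without it, so effects of the drug and of the knockdown cannot be told apart. For every antibody there were 2 libraries of WT and 2 of STAG2-KD, one of each in replicate 1 and in replicate 2. By the labels, chromatin was extracted differently in the replicates, and fragments were size-selected on beads for replicate 1 and on a gel for replicate 2, so that conditions were compared inside each replicate. The depth solved from the lists, in M reads, ran from 20.2 to 46.7 M for replicate 1 and from 37.4 to 71.7 M for replicate 2, and the lists of replicate 1 were limited by q-value while those of replicate 2 were limited by p-value and are longer. Nothing states that the replicates came from separate cultures, so p-values measure only the spread between these libraries. The STAG2 lists were shorter in STAG2-KD in both replicates, whereas the level of STAG2 protein itself was not in the files analysed.

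Melanoma cells can leave the melanocytic state, which rests on the transcription factors MITF and SOX10, and enter an undifferentiated, invasive and drug-tolerant state. Among the genes of that state, AXL, NGFR and EGFR encode cell-surface receptors, and WNT5A encodes a secreted ligand of non-canonical Wnt signalling. ZEB1 and SOX9 encode transcription factors of mesenchymal and neural crest programs. FOSL1 and JUN encode subunits of the AP-1 factor, and TEAD1 encodes the DNA-binding partner of the Hippo effectors YAP and TAZ. Cohesin is a ring that extrudes chromatin loops. SMC1A belongs to every ring in these cells, and each ring holds either STAG1 or STAG2. CTCF bound to its motif in one orientation halts the ring, and cohesin without CTCF is found at active enhancers and promoters.

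The sites were spread unevenly over the genes. TEAD1, the longest with 270 kb, held 84 sites, EGFR held 26, SOX9 16, FOSL1 13, NGFR 11, JUN 10, ZEB1 9, AXL 5 and WNT5A 3. Per 100 kb of window the density was 63.0 sites at SOX9, 45.6 at FOSL1, 36.8 at JUN, 28.9 at TEAD1, 27.7 at NGFR, 12.2 at EGFR, 7.99 at AXL, 6.69 at WNT5A and 3.89 at ZEB1, against 18.4 over the 9 windows together and 7.25 over the genome. ZEB1 spans 211 kb and yet had the fewest sites for its length. A site was 150 to 5944 bp wide, with a median of 440 bp, and 67 sites (37.9%) came from 1 list alone while 21 (11.9%) had a peak in all 16 lists. Over all sites of the genome these shares were 32.5% and 16.6%.

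**Figure D1:**
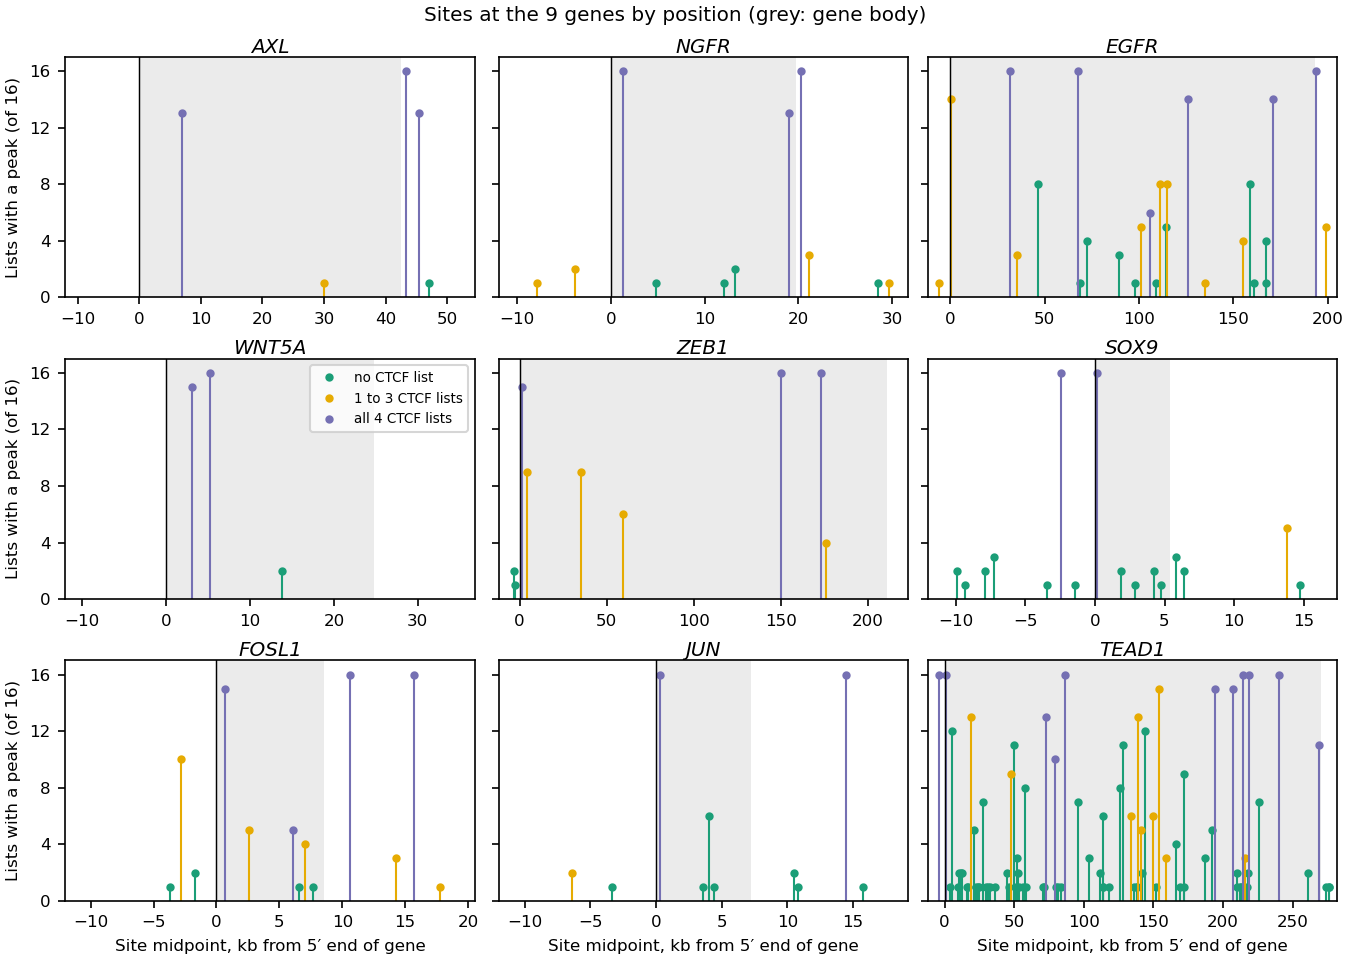
Each panel is 1 gene. The horizontal axis is the distance of a site's midpoint from the 5′ end of the gene in kb, negative upstream, the grey area is the gene body, and the height is the number of the 16 lists with a peak at the site. Colours give the number of CTCF lists with a peak: none, 1 to 3, or all 4. TEAD1 holds 84 of the 177 sites, most of them of few lists and without CTCF. A site of 16 lists has CTCF in all 4 CTCF lists by definition.

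CTCF divided the sites into classes. A peak in all 4 CTCF lists was found at 36 sites (20.3%), a peak in 1 to 3 of them at 34 (19.2%), and none at 107 (60.5%). Over the genome the shares were 30.4%, 26.6% and 43.0%. The class without CTCF, called CTCF-free here, was found most at SOX9 (13 of 16 sites), TEAD1 (64 of 84) and JUN (7 of 10), and least at AXL (1 of 5) and ZEB1 (2 of 9). Its share exceeded the genome's 43.0% only at SOX9, TEAD1 and JUN, and TEAD1 alone held 64 of the 107 sites. The share was 42.3% at EGFR, 36.4% at NGFR, 33.3% at WNT5A and 30.8% at FOSL1. The higher share over the 9 genes thus rested mostly on TEAD1. Most CTCF-free sites were weak: 61 of 107 came from 1 list, and 68 had only SMC1A peaks. Over the genome 56681 of 96522 CTCF-free sites came from 1 list, and 52995 had only SMC1A peaks. Cohesin in at least 8 of the 12 cohesin lists was found at 32 of the 36 sites with CTCF in 4 lists (88.9%, against 77.0% of all such sites), and at 9 of the 107 CTCF-free sites (8.41%, against 7.08%). Of those 9 CTCF-free sites, 7 lie in TEAD1 and 2 in EGFR. By the GENCODE annotation 89 of the 107 CTCF-free sites (83.2%) were intronic and 4 were at a promoter, that is with the strongest summit within 1 kb of the start of any annotated transcript. All 4 lie at SOX9, at starts of SOX9-AS1 or of the gene ENSG00000288605 and at none of a coding transcript. Of the 36 sites with CTCF in 4 lists, 17 were intronic and 14 (38.9%) at a promoter.

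The bases under the CTCF peaks are shown first, because they give the strand of the CTCF match at a site. A weight matrix of 19 bases was learnt from the 5000 strongest CTCF sites of the genome, and the best match within 100 bp of the CTCF summit was kept when it scored at least 8.04, a level that 5.00% of windows 5 kb away reach. Such a match was present at 23 of the 36 sites with CTCF in 4 lists (63.9%), against 71.1% of all 68277 such sites that could be scored, and at 9 of the 34 sites with CTCF in 1 to 3 lists (26.5%, against 35.4%). For each gene the best match at its strongest CTCF site is printed, 5′ to 3′ on the strand of the match, from the hg19 reference, with the 19 matched bases in capitals.
AXL, 43.3 kb from the 5′ end, chr19:41768323-41768351, minus strand: caggaGCCGCCACTGGAGGGCGTCcgggc
NGFR, 1.33 kb, chr17:47573923-47573951, plus strand: gggagGCGGCAGGCAGGGGGCGCTgcggg
EGFR, 126 kb, chr7:55212196-55212224, plus strand: aagggGTGCCCAGCAGAGGGAGTCatatc
WNT5A, 5.27 kb, chr3:55519278-55519306, plus strand: tcaagGCGGCCAACAGGGGGCAGCcggca
ZEB1, 173 kb, chr10:31780232-31780260, minus strand: acttcCTCTCCAGTAGGAGGAGCTgtggc
FOSL1, 15.7 kb, chr11:65652295-65652323, minus strand: agggaTTGGCCGGCAGGTGGCACTgctgc
JUN, 14.5 kb, chr1:59235102-59235130, minus strand: aaaacAGTGCCGGTAGATGGCGCCagagg
TEAD1, 219 kb, chr11:12915791-12915819, minus strand: accgtCCAACCTGAAGATGGCAGTctttt
The match lies on the strand of the gene at NGFR, EGFR, FOSL1 and JUN and on the other strand at AXL, WNT5A, ZEB1 and TEAD1. The scores were 21.08 at FOSL1, 20.53 at WNT5A, 17.48 at NGFR, 16.76 at JUN, 14.97 at EGFR, 14.15 at AXL, 11.65 at TEAD1 and 11.26 at ZEB1. The strongest CTCF site of SOX9 had a best score of 3.12, below the level set, so no match is printed for it. The centres of the printed matches all lay within 25 bp of the CTCF summit. Some other sites with CTCF in 4 lists had a match on the strand opposite to the one printed for the gene. Examples are EGFR at 194 kb (score 12.88), JUN at its 5′ end (8.89) and TEAD1 at 194 kb (8.19). The printed strand thus need not hold for a whole gene.

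Strength is given below as the percentile of a peak within its own list by the authors' p-value, where 100 is the strongest peak of the list, since lists differ in length and depth. Percentiles are relative: a site can move in percentile because other peaks of the list move.

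Among the receptors, AXL, a tyrosine kinase that binds GAS6, had its strongest site past its 3′ end, 43.3 kb from the 5′ end, where HNRNPUL1, which encodes an RNA-binding protein, begins. All 16 lists had a peak there, with percentiles of 87.9 to 99.6 and a median of 97.5. The CTCF percentile was 97.8 in WT and 90.2 under STAG2-KD in replicate 1, and 97.7 and 87.9 in replicate 2. The STAG2 percentile was 97.8 and 91.9, and 98.9 and 93.9, so that the site was strong in every library and lower in STAG2-KD, as it also was for STAG1 and SMC1A. No site lay within 1 kb of the 5′ end of AXL. The nearest, 7.0 kb inside and at the start of a shorter AXL transcript, had STAG2 percentiles of 13.4 in WT and 30.9 under STAG2-KD in replicate 1, and 42.1 and 60.9 in replicate 2. Another CTCF site, 45.4 kb from the 5′ end and in HNRNPUL1, had STAG2 percentiles of 16.8 and 48.3, and of 48.1 and 61.1. These are 2 of the only 3 sites at the 9 genes with a higher STAG2 percentile in STAG2-KD in both replicates. With lists cut to the same length of 58521 peaks only 1 AXL site has STAG2 in all 4 lists, and there it is lower in STAG2-KD. The number of AXL STAG2 peaks in such lists was still higher in STAG2-KD, at 1 and 3 in both replicates. Rank could therefore not be compared at the other AXL sites with such lists.

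NGFR encodes a neurotrophin receptor that marks neural crest-like melanoma cells. Its promoter site, centred 1.33 kb from the 5′ end and 3674 bp wide, had a peak in all 16 lists. CTCF stood near the top there, with percentiles of 96.9 in WT and 95.1 under STAG2-KD in replicate 1 and of 99.7 and 95.7 in replicate 2, and fold enrichments over background of 98.3 and 70.4, and 65.0 and 35.2. STAG2 was lower in STAG2-KD, at 78.1 and 67.0, and at 88.5 and 84.6. STAG1 was weaker than STAG2 in each pair of lists, at 57.1 and 63.0, and at 74.8 and 74.1. A site past the gene's 3′ end, 20.3 kb from the 5′ end, had STAG2 percentiles of 52.7 and 11.4, and of 75.1 and 58.5. The 4 CTCF-free sites of NGFR had only SMC1A peaks.

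EGFR, the receptor of epidermal growth factor, held sites along 193 kb. Its promoter site, 0.322 kb from the 5′ end, had all 12 cohesin lists but CTCF in the lists of replicate 2 only, at percentiles of 22.0 in WT and 22.6 in STAG2-KD. There STAG1 was higher in STAG2-KD, at 12.3 and 31.8 in replicate 1 and 37.5 and 49.3 in replicate 2, and STAG2 was 36.0 and 12.6, and 59.3 and 60.3. A pair of CTCF sites, 126 kb from the 5′ end in an intron and 171 kb from it at the start of the antisense gene EGFR-AS1, lacked both STAG1 and STAG2 peaks in STAG2-KD of replicate 1. At 126 kb STAG1 was at 38.1 in WT and had no peak under STAG2-KD in replicate 1, and was at 54.2 and 30.5 in replicate 2. STAG2 at this site was at 49.1 and had no peak, and was at 63.6 and 31.7. At 171 kb STAG1 was at 38.1 and had no peak, and was at 56.4 and 30.5. STAG2 there was at 54.3 and had no peak, and was at 63.6 and 21.3. CTCF stayed in all 4 lists at both, at 59.6 and 48.8, and 72.2 and 65.5 for the first and at 4.22 and 29.6, and 47.2 and 48.3 for the second. SMC1A also had a peak in all 4 lists at both, lower in STAG2-KD. It was at 58.0 and 25.8, and 79.2 and 67.8 for the first and at 24.1 and 23.8, and 55.1 and 43.5 for the second. The motif printed above for EGFR belongs to the first of these sites. By contrast, 2 adjacent intronic sites at 114 kb and 115 kb, the first of them CTCF-free, gained SMC1A in both replicates. The CTCF-free one had SMC1A at 23.8 and 71.9 in STAG2-KD and no SMC1A peak in WT, and the other at 7.47 and 60.3.

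WNT5A, the ligand, had only 3 sites. No site lay within 1 kb of the 5′ end that GENCODE gives. A site 3.10 kb inside, which covers the start of a shorter WNT5A transcript and of the antisense gene WNT5A-AS1, had STAG1 at 3.67 in WT and 38.6 under STAG2-KD in replicate 1, with 56.4 and 58.5 in replicate 2. STAG2 there was at 19.6 in WT with no peak under STAG2-KD in replicate 1, with 58.1 and 56.4 in replicate 2. The intronic CTCF site 5.27 kb inside, whose motif is printed above, had a peak in all 16 lists. Its percentiles were lower in STAG2-KD for STAG2 (74.0 and 60.3, 83.4 and 77.8), SMC1A (74.4 and 70.7, 83.9 and 82.4) and CTCF (75.3 and 74.2, 83.9 and 80.5). SMC1A and CTCF were lower in STAG2-KD in both replicates at the 3.10 kb site as well. Over these 2 sites the median change in replicate 1 and replicate 2 was −11.7 and −9.04 for SMC1A, and −7.75 and −4.76 for CTCF.

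ZEB1, a repressor of epithelial genes, had more STAG1, SMC1A and CTCF peaks and fewer STAG2 peaks in STAG2-KD in both replicates. Its number of STAG1 peaks was 4 in WT and 10 under STAG2-KD in replicate 1, and 8 and 9 in replicate 2, while its number of STAG2 peaks was 3 and 2, and 7 and 6. SMC1A peaks numbered 4 and 6, and 4 and 7, and CTCF peaks 3 and 5, and 7 and 9. ZEB1 was the only one of the 9 genes with more STAG1 peaks in STAG2-KD in both replicates, also with lists cut to the same length, where the counts were 4 and 6 in both replicates. The other antibodies did not keep their direction in both replicates with such lists. STAG2 counts were then 3 and 2, and 3 and 3, SMC1A counts 3 and 4, and 3 and 3, and CTCF counts 3 and 4, and 4 and 4. At the promoter, shared with ZEB1-AS1, STAG1 was at 22.2 and 55.3, and at 54.2 and 68.1. STAG2 there was at 28.9 in WT with no peak under STAG2-KD in replicate 1, with 62.7 and 48.9 in replicate 2. The fold enrichment of STAG1 at the promoter was 5.02 and 11.1, and 6.08 and 10.2, and that of CTCF was 21.1 and 21.8, and 18.2 and 17.5. Deep in the gene, 150 kb from the 5′ end, STAG1 was at 45.1 and 67.2, and at 63.2 and 71.5, and STAG2 at 46.0 and 7.79, and at 62.7 and 45.3. At 173 kb, the site of the printed motif, STAG1 was at 76.8 and 76.7, and at 80.7 and 82.0, and STAG2 at 70.5 and 51.0, and at 76.9 and 74.4. Of the 4 ZEB1 sites with STAG1 in all 4 lists, 3 had a higher percentile in STAG2-KD in both replicates, by p-value, by fold enrichment and with lists of equal length. The 2 sites with STAG2 in all 4 lists were lower in both replicates by p-value, and 1 of them by fold enrichment or with lists of equal length. Most sites of the genome moved the same way by p-value. In both replicates 56.6% of all sites with STAG1 in 4 lists were higher, and 60.4% of those with STAG2 in 4 lists were lower. No test compared ZEB1 with the other genes.

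SOX9 encodes a transcription factor that opposes SOX10 in melanoma cells. Its 25.4 kb window was crowded, and its strongest site lay 2.44 kb upstream, at the start of SOX9-AS1. All 16 lists had a peak there at percentiles of 86.3 to 99.1. STAG1 was at 99.0 in WT and 98.4 under STAG2-KD in replicate 1, with 99.1 and 94.7 in replicate 2, and STAG2 was at 99.1 and 95.9, and at 96.7 and 96.1. The promoter site was weaker, with STAG1 at 42.7 and 57.6, and at 65.8 and 66.3, and STAG2 at 38.0 and 33.3, and at 59.8 and 56.6. Of the 13 CTCF-free sites of SOX9, 9 had only SMC1A, and none had cohesin in 8 or more of the 12 cohesin lists.

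FOSL1 lies in a gene-dense region, and its strongest sites belong to neighbours. The site 15.7 kb from its 5′ end, past its 3′ end and at a start of FIBP, which encodes a protein that binds an acidic fibroblast growth factor, had peaks in all 16 lists at percentiles of 86.7 to 99.9. CTCF was at 99.9 in WT and 95.7 under STAG2-KD in replicate 1, with 99.0 and 98.6 in replicate 2. The promoter of FOSL1 itself, centred 0.701 kb inside, had CTCF at 36.9 and 49.1, and at 60.2 and 54.6. STAG1 had no peak there in WT of replicate 1 and was at 39.0 in STAG2-KD, and was at 40.8 and 37.1 in replicate 2. A CTCF-free site of 182 bp upstream of FOSL1, at −1.69 kb, gained SMC1A in both replicates, at 8.52 and 45.3 in STAG2-KD, and a site at a start of FIBP, 14.3 kb from the 5′ end of FOSL1, gained CTCF in both, at 16.8 and 33.6.

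JUN, the other AP-1 subunit here, had 2 sites of all 16 lists. The site over its 5′ end and upstream was 5944 bp wide and had percentiles of 81.5 to 98.4. The site 14.5 kb from the 5′ end, past the 3′ end, had percentiles of 89.2 to 99.2, and STAG1 barely differed there, at 93.3 and 92.4, and at 93.0 and 92.4. STAG2 at the same site was at 95.1 and 89.2, and at 96.1 and 94.3. The best CTCF-free site, 4.01 kb from the 5′ end and intronic in the extended JUN transcripts of the annotation, had SMC1A in all 4 lists but weakly in replicate 1, at 6.41 and 3.95, against 61.6 and 64.0 in replicate 2.

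TEAD1 carried some strong CTCF sites and most of the CTCF-free cohesin sites. Intronic CTCF sites 214 kb and 219 kb from its 5′ end had peaks in all 16 lists at percentiles of 86.5 to 97.7 and of 87.3 to 98.9. The 214 kb site holds the best-scoring CTCF match of the gene (17.65), on the strand opposite to TEAD1 as at 219 kb.
TEAD1, 214 kb, chr11:12910487-12910515, minus strand: gacacAGAGCCAGCAGGGGGCGATcatcc
At 214 kb STAG2 was at 86.9 in WT and 90.6 under STAG2-KD in replicate 1, with 91.6 and 94.5 in replicate 2, the third site at the 9 genes with a higher STAG2 percentile in both. The promoter site, 5641 bp wide, had STAG1 at 57.1 and 63.4, and at 77.9 and 76.7, and STAG2 at 70.4 and 59.5, and at 85.4 and 89.4. CTCF was weak there, at 17.5 and 15.4, and at 37.9 and 38.0.

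The CTCF-free cohesin of TEAD1 was strongest just inside the gene. The site 5.56 kb from the 5′ end had all 12 cohesin lists. STAG1 was at 37 in WT and 54.3 under STAG2-KD in replicate 1, with 62.0 and 63.4 in replicate 2, STAG2 was at 56.6 and 24.0, and at 75.7 and 65.4, and SMC1A was at 68.7 and 62.4, and at 81.1 and 81.3. The site 144 kb inside, with all 12 cohesin lists as well, had STAG2 at 52.7 and 19.9, and at 73.1 and 61.3. At these sites STAG2 was lower in STAG2-KD in each replicate and SMC1A stayed above the middle of its lists. The AP-1 motif, TGANTCA on either strand, occurred within 100 bp of the summit at 4 of the 9 CTCF-free sites with cohesin in 8 or more lists (44.4%), against 24.7% of 6829 such sites of the genome. They are printed because FOSL1 and JUN encode the factor that binds this motif, with the motif in capitals, on the plus strand of hg19.
EGFR, 46.6 kb, chr7:55132993-55133021: agctttgctggTGACTCAtgcgctgtgtg
TEAD1, 49.8 kb, chr11:12746065-12746093: aggagtgctgaTGACTCAtcctctgaatg
TEAD1, 57.7 kb, chr11:12753540-12753568: ccttgtcacacTGAGTCAttgagcttgtg
TEAD1, 144 kb, chr11:12839381-12839409: acacagtcctcTGACTCAtgtcagattgt
Over all 107 CTCF-free sites the AP-1 motif was found in 11.2% (15.1% of all CTCF-free sites), the TEAD motif GGAATG in 12.1% (13.7%) and the E-box CACGTG in 2.80% (2.70%). The counts of the 9 sites are small, a match is only a match of letters, and no factor other than CTCF was measured.

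**Figure D2:**
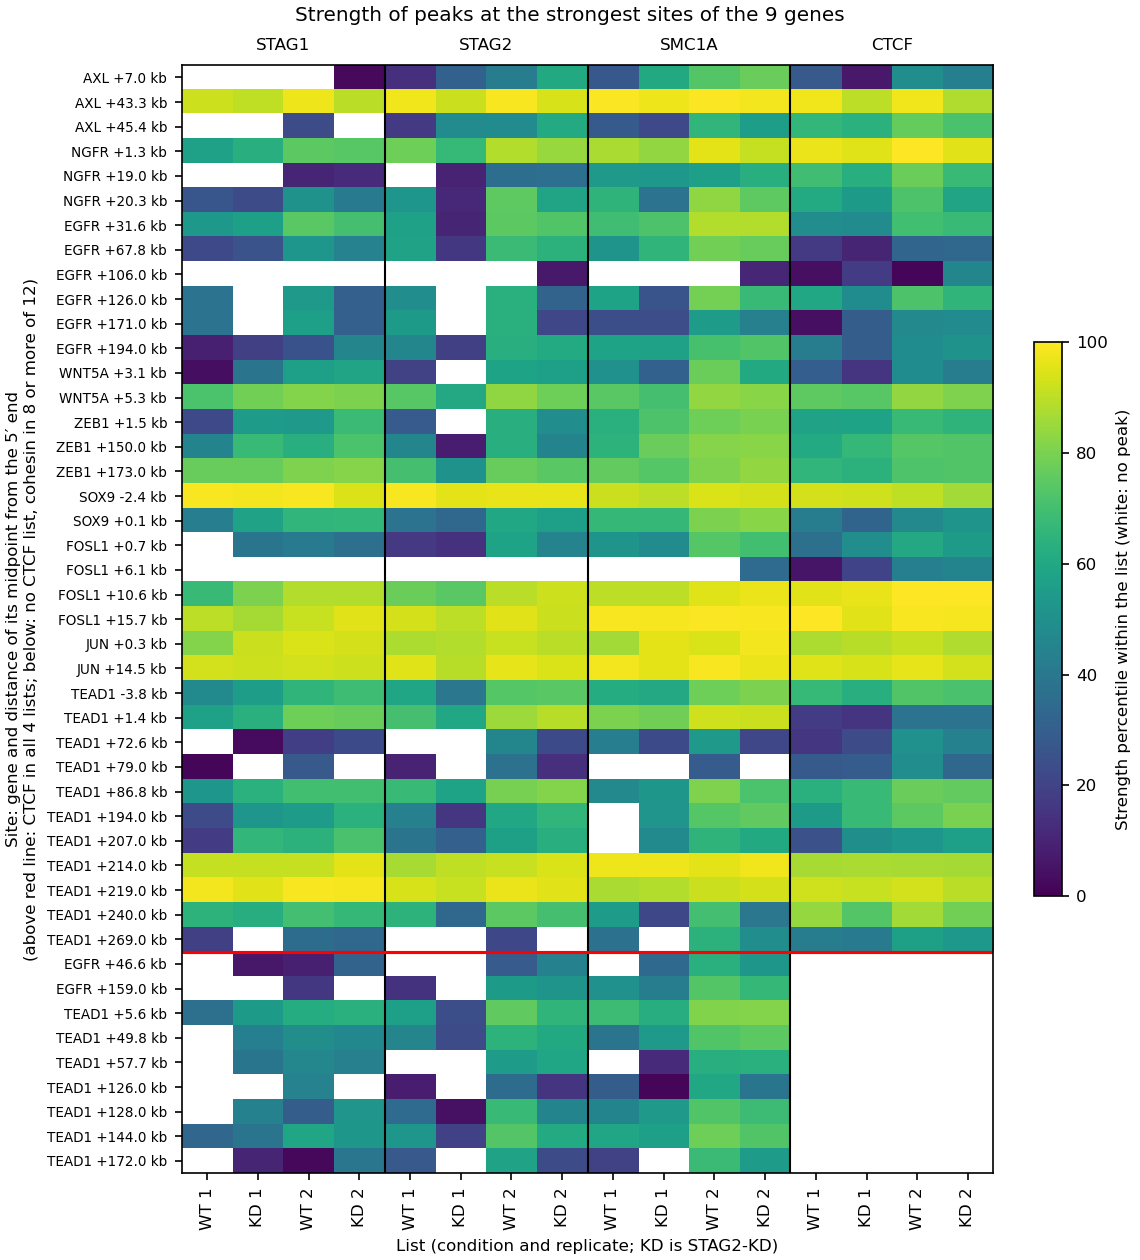
Each row is a site, named by its gene and the distance of its midpoint from the 5′ end in kb, each column is 1 of the 16 lists, and the colour is the strength percentile within the list, with white where the list has no peak. The 36 rows above the red line have CTCF in all 4 lists, and the 9 rows below it have no CTCF peak and cohesin in 8 or more of the 12 lists. The sites of AXL at 43.3 kb, SOX9 at −2.44 kb, FOSL1 at 10.6 and 15.7 kb, both JUN sites and TEAD1 at 214 and 219 kb stay bright across all lists, while STAG2 darkens from WT to STAG2-KD of replicate 1 at most other rows.

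Counts of peaks at the 9 genes were compared next. STAG2 peaks numbered 64 in WT and 47 under STAG2-KD in replicate 1 and 95 and 82 in replicate 2, with a log2 ratio averaging −0.33 ± 0.17 (SD, n = 2; two-sided exact permutation test over the 4 libraries, p = 0.667). STAG1 peaks numbered 48 and 68, and 79 and 77, with a log2 ratio averaging 0.23 ± 0.38 (SD, n = 2; exact permutation p = 1.00). SMC1A peaks numbered 79 and 96, and 144 and 140, a mean of 0.12 ± 0.23 (SD, n = 2; exact permutation p = 1.00). CTCF peaks numbered 52 and 56, and 74 and 73, a mean of 0.04 ± 0.09 (SD, n = 2; exact permutation p = 1.00). With 2 libraries against 2 the smallest p is 0.333, so no such test can pass 0.05. The only antibody with the same direction in both replicates was STAG2. The 9 genes held 0.0602% to 0.105% of the peaks of a list, and for STAG2 0.0809% in WT and 0.0803% under STAG2-KD in replicate 1 and 0.0798% and 0.0772% in replicate 2, so the count at the 9 genes was lower by about the same proportion as the list. With lists cut to the same length, STAG2 had a mean log2 ratio of −0.04 ± 0.09 (SD, n = 2), with 0.03 in replicate 1 and −0.10 in replicate 2, while the sign of the mean turned for STAG1 (−0.12) and SMC1A (−0.17). By gene, STAG2 peaks were fewer in STAG2-KD in both replicates at 5 of the 9 genes (EGFR, WNT5A, ZEB1, SOX9 and TEAD1) and more numerous at NGFR. With lists of equal length they were fewer at 2 genes, EGFR and TEAD1, and more numerous at AXL instead of NGFR.

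**Figure D3:**
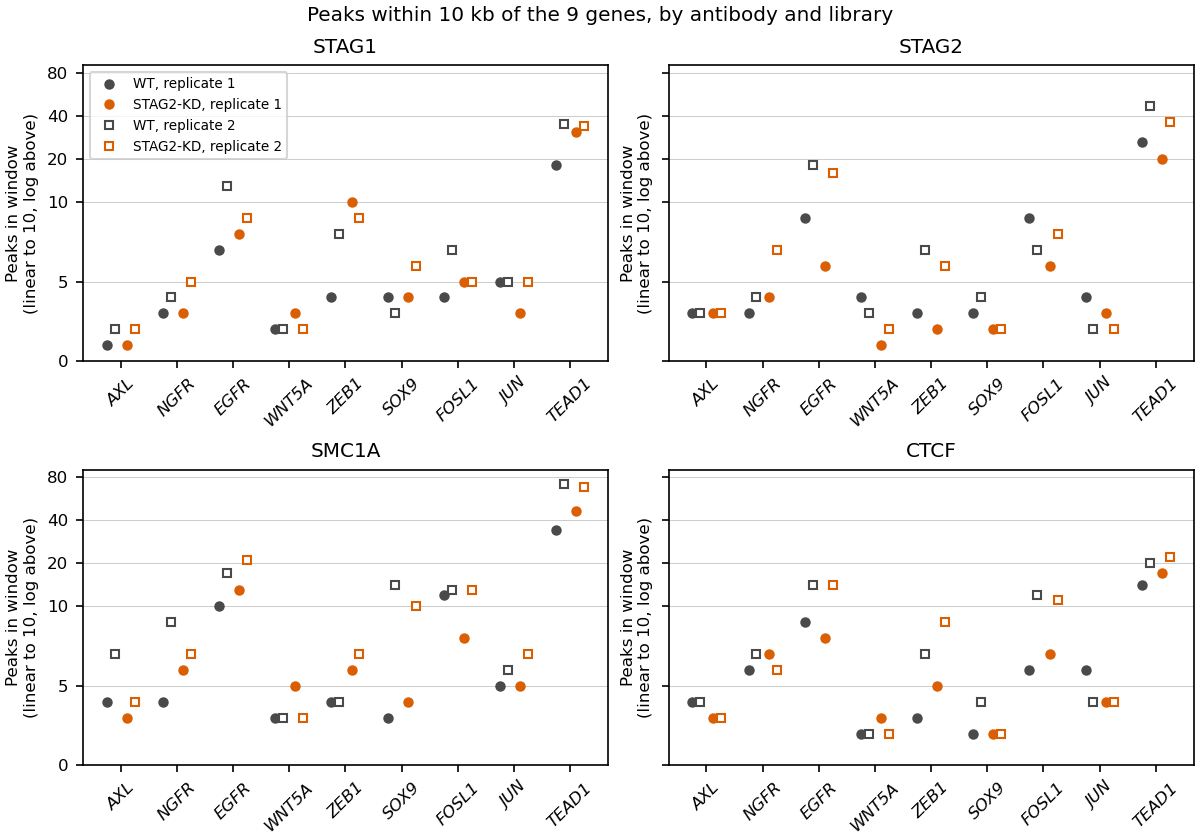
Each panel is 1 antibody. The vertical axis is the number of peaks in the gene's window (linear to 10, logarithmic above), grey marks are WT and orange marks STAG2-KD, filled circles are replicate 1 and open squares replicate 2. TEAD1 has the most peaks in every list, 18 to 71 for cohesin, and ZEB1 shows 4 and 10, and 8 and 9, STAG1 peaks.

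Peaks of WT that no STAG2-KD peak of the same replicate overlapped are termed lost, and the reverse are termed gained. These are presences at the authors' thresholds. For STAG2, 19 of 64 WT peaks at the 9 genes were lost in replicate 1 (29.7%, against 32.2% of all WT STAG2 peaks) and 23 of 95 in replicate 2 (24.2%, against 22.1%). Gained STAG2 peaks were 2 of 47 (4.26%, against 6.62%) and 15 of 82 (18.3%, against 12%). STAG1 gained 27 of 68 peaks (39.7%, against 31.7%) and 15 of 77 (19.5%, against 18.6%), and lost 7 of 48 (14.6%, against 6.42%) and 14 of 79 (17.7%, against 13.6%). SMC1A lost 15 of 79 (19%, against 19.1%) and 40 of 144 (27.8%, against 25.8%), and gained 33 of 96 (34.4%, against 28.6%) and 51 of 140 (36.4%, against 29.7%). CTCF lost 5 of 52 (9.62%, against 12.3%) and 12 of 74 (16.2%, against 16.9%), and gained 11 of 56 (19.6%, against 15.1%) and 12 of 73 (16.4%, against 12.1%). The shares of lost STAG1 peaks and of gained STAG1, SMC1A and CTCF peaks lay above those of the whole lists in both replicates, some of them narrowly. The share of lost CTCF peaks lay below in both. The shares of lost STAG2, lost SMC1A and gained STAG2 peaks lay below in replicate 1 and above in replicate 2. No test compared the 9 genes with the whole lists. Lost STAG2 peaks were weak ones: their median WT percentile was 21.2 (replicate 1) and 21.0 (replicate 2), while that of the STAG2 peaks found in both conditions was 56.6 and 58.0.

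The losses and gains sat mostly where CTCF was absent. Of the WT STAG2 peaks without a CTCF peak of the same condition and replicate, 12 of 24 were lost in replicate 1 (50.0%, against 67.3% of all such peaks) and 18 of 40 in replicate 2 (45.0%, against 43.8%). With a CTCF peak, 7 of 40 (17.5%, against 19%) and 5 of 55 (9.09%, against 12.2%) were lost. Gained STAG1 peaks followed the same division, with 21 of 33 (63.6%, against 69.7% of all such peaks) without CTCF and 6 of 35 (17.1%, against 18.7%) with it in replicate 1, and 13 of 30 (43.3%, against 46.0%) and 2 of 47 (4.26%, against 9.48%) in replicate 2. STAG1 lost in replicate 1 went the other way, with 6 of 37 peaks (16.2%, against 2.92%) with CTCF and 1 of 11 (9.09%, against 24.9%) without it. Lost peaks were also the weaker ones, and the part of strength in this division was not tested. The share of STAG1 peaks with a CTCF peak was 77.1% in WT and 51.5% under STAG2-KD in replicate 1, and 63.3% and 61.0% in replicate 2 (mean change −13.9 ± 16.5 percentage points, SD, n = 2; exact permutation p = 0.333). The share of STAG2 peaks with a CTCF peak was 62.5% and 72.3%, and 57.9% and 69.5% (mean change 10.7 ± 1.26, SD, n = 2; exact permutation p = 0.333), and that of SMC1A peaks 50.6% and 41.7%, and 36.8% and 40.7% (−2.53 ± 9.10, SD, n = 2; exact permutation p = 1.00). Both values of 0.333 are the smallest this test can give. With lists of equal length the mean change was 7.13 for STAG2, while it turned to 0.62 for STAG1 and 1.72 for SMC1A. Over whole lists the STAG1 share was 84.1% and 74.4%, and 77.9% and 74.9%. The STAG2 share was 72.6% and 83.2%, and 68.7% and 70.7%, and the SMC1A share 65.5% and 64.0%, and 54.5% and 54.1%. Whole lists thus moved in the direction of the mean at the 9 genes for each antibody. The shares at the 9 genes lay below those of the whole lists in every library. Without TEAD1 the STAG2 share was 78.9% in WT and 85.2% under STAG2-KD in replicate 1. It then lay above the whole list in both conditions of both replicates. The STAG1 share without TEAD1 lay below only in STAG2-KD of replicate 1, and the SMC1A share above only in STAG2-KD of replicate 2.

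**Figure D4:**
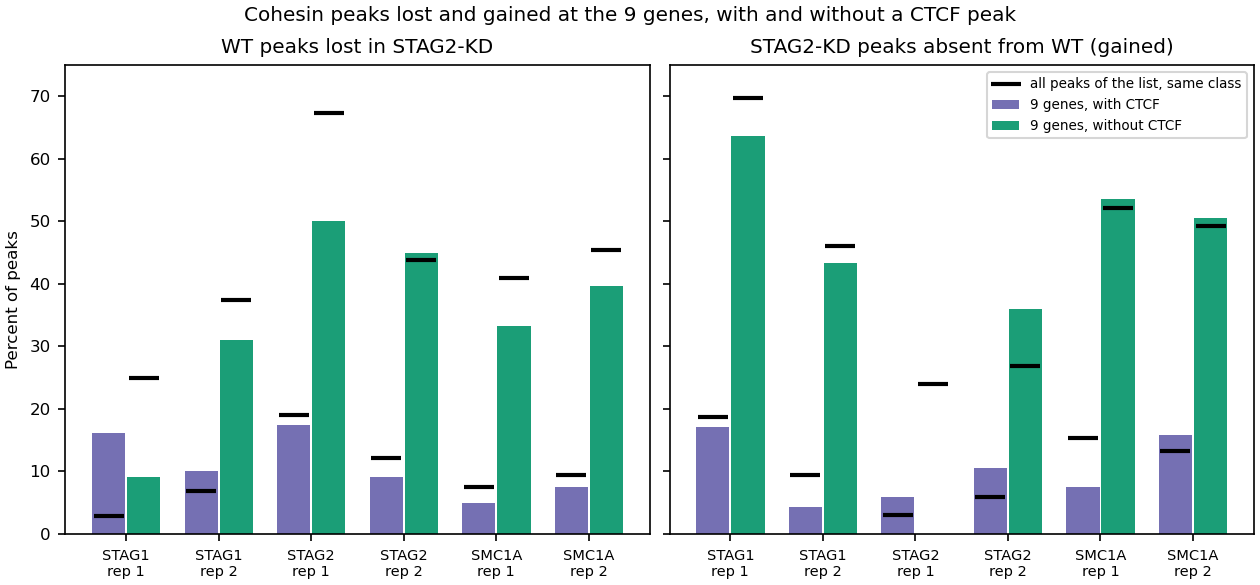
Bars give the percent of cohesin peaks at the 9 genes that were lost (left, of WT peaks) or gained (right, of STAG2-KD peaks), with and without a CTCF peak, by antibody and replicate, and the black lines give the same percent over the whole list. Bars without CTCF are taller than bars with CTCF except for STAG1 lost in replicate 1 (9.09% and 16.2%) and STAG2 gained in replicate 1 (0 and 5.88%).

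Few of the lost STAG2 peaks had STAG1 newly found, with shares close to those of all lost STAG2 peaks. Of the 19 lost STAG2 peaks in replicate 1, 4 (21.1%, against 20.4% of all lost STAG2 peaks) had STAG1 only in STAG2-KD, 3 (15.8%, against 28.6%) had STAG1 in both conditions and 9 (47.4%, against 43.7%) had none. In replicate 2 these numbers were 2 (8.70%, against 9.95%), 5 (21.7%, against 15.8%) and 14 (60.9%, against 65.0%) of 23. At retained STAG2 peaks STAG1 was found in both conditions at 36 of 45 in replicate 1, against 87.4% of all retained STAG2 peaks. In replicate 2 this held at 50 of 72 (69.4%, against 79.5%). The share at the 9 genes was below that of the whole list in both replicates.

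Changes in both replicates were few. Of 45 sites with STAG2 in both WT lists 1 had no STAG2 in either STAG2-KD list (2.22%, against 4.81% of all such sites), and of 36 sites with STAG2 in both STAG2-KD lists none was without STAG2 in WT (0.659% of all such sites). The lost one is a CTCF-free intronic site of TEAD1, 104 kb from the 5′ end, with STAG2 at 31.6 in WT of replicate 1 and 49.6 in WT of replicate 2. STAG1 lost 1 of 36 sites (2.78%, against 1.28%) and gained 1 of 45 (2.22%, against 5.56%). The lost STAG1 site is a CTCF site of TEAD1 at 79.0 kb, with STAG1 at 1.61 and 27.8 in WT and no STAG1 in STAG2-KD. The gained one is CTCF-free, at 95.6 kb in TEAD1, with STAG1 at 1.92 and 18.2 in STAG2-KD. SMC1A lost 1 of 48 sites (2.08%, against 2.96%), at 261 kb in TEAD1, and gained 6 of 61 (9.84%, against 5.39%), the pair in EGFR, the one upstream of FOSL1 and 3 in TEAD1 at 10.6, 12.5 and 142 kb. CTCF lost none of 38 sites (2.95% over the genome) and gained 1 of 44 (2.27%, against 1.77%). Most of these peaks lay below the middle of their lists. The exceptions were SMC1A in STAG2-KD of replicate 2 at both EGFR sites, given above, and at the 10.6 kb site of TEAD1, where it was at 55.8.

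Rank was compared at sites with a peak in all 4 lists of an antibody, which leaves out every site that lost or gained its peak. STAG2 had 34 such sites at the 9 genes, and 23 of them (67.6%, against 60.4% of all such sites) had a lower percentile in STAG2-KD in both replicates and 3 (8.82%, against 12.4%) a higher one. The median change was −12.4 in replicate 1, with a range of −46.6 to 31.5, and −2.84 in replicate 2, against −8.29 and −1.93 over 48898 sites. TEAD1 held 15 of the 34 sites. Without it the median change was −5.97 and −2.49, smaller than over all sites in replicate 1 and larger in replicate 2. STAG1 had 32 sites, 15 of them (46.9%, against 56.6%) higher in both replicates and 7 (21.9%, against 11.1%) lower, with a median change of 7.14 and 0.31, against 8.55 and 1.25 over all sites. SMC1A had 43 sites, with 20 lower in both (46.5%, against 29.5%) and 12 higher (27.9%, against 39.7%), and a median change of −1.57 and −0.76, against 1.79 and 0.01. CTCF had 36 sites, with 17 lower (47.2%, against 37.5%) and 5 higher (13.9%, against 29.5%), and a median change of −1.24 and −2.72, against 0.67 and −1.49. The exact permutation test of the library medians gave p = 0.667 for STAG1, STAG2 and CTCF and p = 1.00 for SMC1A. With lists of equal length the mean change of the medians was −2.93 for STAG2 and turned to −1.62 for STAG1. The counts for SMC1A and CTCF lean to lower percentiles more than over the genome, but sites of 1 gene share their surroundings and are not replicates, and the medians changed by less than 3 percentiles.

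**Figure D5:**
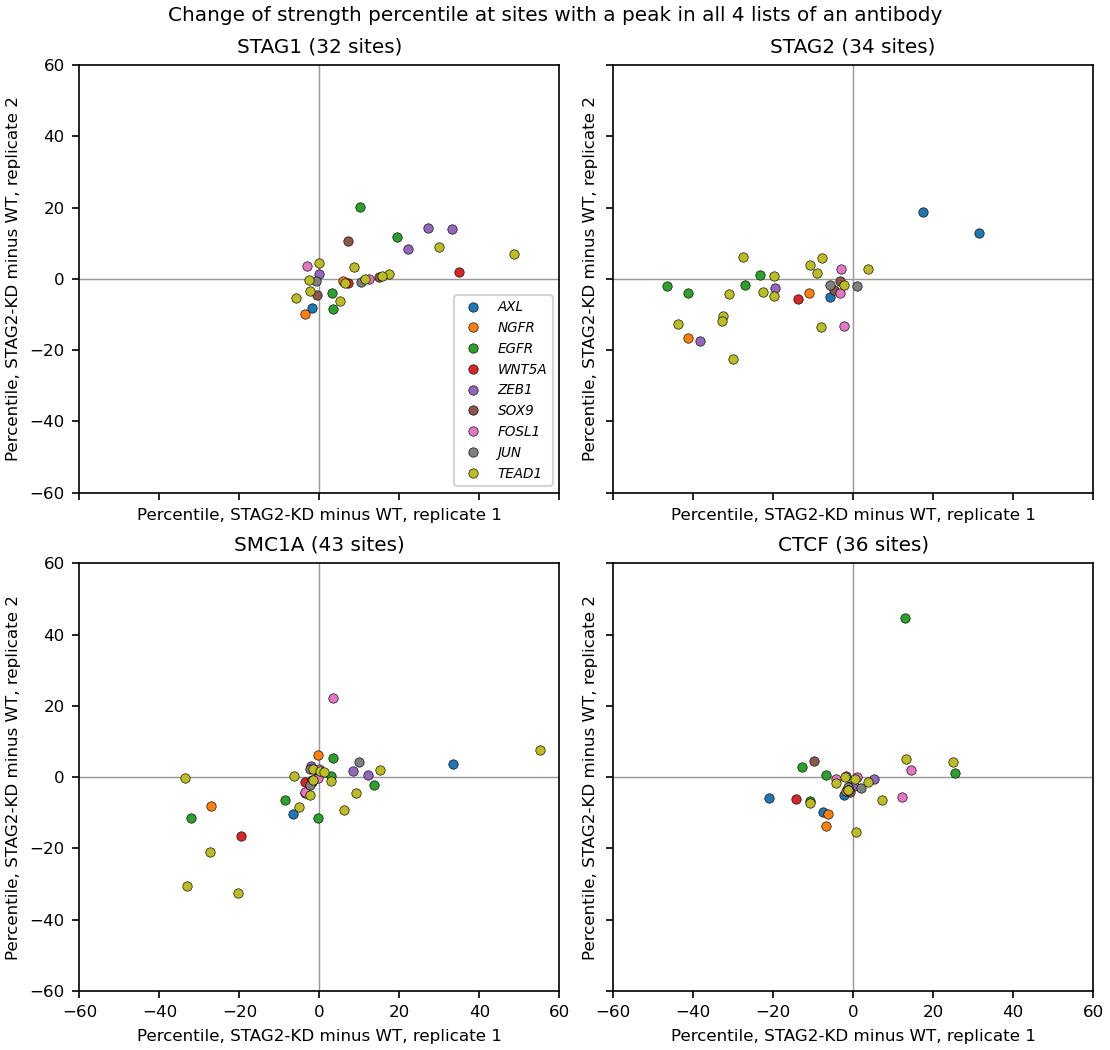
Each point is a site at the 9 genes with a peak in all 4 lists of the antibody, coloured by gene. The horizontal axis is the strength percentile in STAG2-KD minus that in WT in replicate 1 and the vertical axis the same difference in replicate 2. For STAG2, 23 of 34 points lie in the lower left, and 3 points, 2 of AXL and 1 of TEAD1, lie in the upper right. For STAG1, 3 ZEB1 points lie in the upper right.

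By gene, the median STAG2 change in replicate 1 and replicate 2 was −34.2 and −1.90 at EGFR (4 sites), −28.8 and −9.94 at ZEB1 (2 sites), −26.2 and −10.2 at NGFR (2 sites), −20.0 and −3.72 at TEAD1 (15 sites) and 17.5 and 12.9 at AXL (3 sites). The smallest median STAG2 changes in replicate 1 were at SOX9 (−3.94 and −1.91), FOSL1 (−3.08 and −3.80) and JUN (−2.53 and −1.85). For STAG1 the largest median changes were at ZEB1 (24.6 and 11.1, 4 sites), whereas AXL (1 site) had −1.90 and −8.09. CTCF was lower in both replicates at all 3 sites each of AXL and NGFR and both sites of WNT5A. Changes were larger in replicate 1 than in replicate 2 for STAG2 at most genes, and the replicates differ in extraction, depth and peak threshold, whose part in this was not tested.

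Other genes of the same program were counted in the same way. At 34 of them, among them AP-1 and TEAD family members, extracellular matrix and cytoskeletal genes, all had a site, and 544 of 776 sites (70.1%, against 43.0% of all sites) were CTCF-free. STAG2 was lower in both replicates at 57.9% of 121 sites with STAG2 in all 4 lists (60.4% over the genome) and higher at 14% (12.4%). STAG1 was higher at 54.0% of 124 (56.6%) and lower at 12.9% (11.1%). In the window of these genes 101 of 248 WT STAG2 peaks (40.7%, against 32.2% of the whole list) were lost in replicate 1 and 99 of 374 (26.5%, against 22.1%) in replicate 2. At 20 melanocyte lineage genes, the opposite program, 264 of 385 sites (68.6%) were CTCF-free. STAG2 was lower in both replicates at 70.7% of 58 sites and higher at 8.62%, and 76 of 152 WT STAG2 peaks (50.0%) were lost in replicate 1 and 70 of 227 (30.8%) in replicate 2. The lineage genes also had fewer SMC1A peaks in STAG2-KD, 224 and 171 in replicate 1 and 359 and 273 in replicate 2, where the 9 genes had 79 and 96, and 144 and 140. The 34 other genes of the program had 334 and 358, and 629 and 587. The whole SMC1A lists held 82287 and 91582, and 148396 and 150308 peaks. No test compared the lists.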

How the data were processed

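The 16 deposited peak lists, 1 per antibody, condition and replicate, were used, and the 4 input samples, which served the authors as controls for peak calling, were not analysed here. The methods name bowtie2 alignment to hg19, quality and duplicate filters, and MACS2 calls against input for each library, while the submitters' processing notes for replicate 2 also name CASAVA 1.4, BWA and deepTools. The deposited lists give a score, a fold enrichment (ratio of pileup to background), and the −log10 p-value and −log10 q-value of each peak, all of them the authors' values. The score is the −log10 q-value (replicate 1) or −log10 p-value (replicate 2) times 10. The lists of replicate 1 end at a −log10 q-value of 2 and those of replicate 2 at a −log10 p-value of 2.

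Rows outside the autosomes, X and Y were left out (2.97% to 4.60% in replicate 1, 0.137% to 0.253% in replicate 2). Windows were gene bounds (GENCODE v44 on GRCh37) plus 10 kb. Peaks overlapping by at least 1 bp were joined into sites. Percentiles rank p-values within a list, with ties at their mean rank and the strongest peak of a list at a site taken. Depth was solved from the fold and p-value columns, under an assumed genome of 2.7 Gb and with reads extended to the width of the narrowest peak (120 or 150 bp). Its precision follows from these assumptions, since reads per peak are not listed. Tests were two-sided exact permutation tests over libraries (scipy 1.17.1), and the alternatives were stricter or common thresholds, equal list lengths, other windows, 50% overlap, fold in place of p-value, leaving out a replicate or TEAD1, and pairing by replicate. Replicate numbers mark a shared extraction per the labels. The functions were tested on simulated lists. The text names all 9 genes and, for each, the site at its 5′ end, the strongest CTCF site, the CTCF-free site of most lists and every site changed in both replicates; other sites were chosen after their values were seen. The 9 genes and both comparison lists were chosen with earlier results of these data known.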

Additional observations from a re-analysis of the deposited data

How the results depend on the processing

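Labels of the replicates mark the same extraction, and pairing the libraries by replicate as a block left each mean as it was: −0.33 for STAG2, 0.23 for STAG1, 0.12 for SMC1A and 0.04 for CTCF peak number (log2), 3.73, −7.62, −1.16 and −1.98 percentiles for the rank of STAG1, STAG2, SMC1A and CTCF, and −13.9, 10.7 and −2.53 percentage points for the CTCF share of STAG1, STAG2 and SMC1A. The sign-flip test of 2 pairs cannot go below 0.500, so pairing changed no call. Equal list lengths turned the mean log2 ratio of peak number to −0.12 for STAG1 and −0.17 for SMC1A, the STAG1 rank to −1.62 and the CTCF share to 0.62 for STAG1 and 1.72 for SMC1A. They moved the lost share to 22.1% (STAG1), 16.6% (STAG2) and 3.12% (CTCF) and the gained share to 15.1% (SMC1A) and 10.6% (CTCF). A stricter threshold turned the SMC1A rank to 1.13 and moved lost shares to 12.9% (STAG1), 16.4% (SMC1A) and 7.43% (CTCF) and the gained SMC1A share to 27.9%. Gene bounds alone moved the lost STAG1 share to 13.7%, 50% overlap the lost STAG1 share to 20.8% and the gained SMC1A share to 39.3%. Without TEAD1 the CTCF log2 ratio was −0.0225 and the gained SMC1A share 31.4%. Leaving out a replicate in turn gave −0.0370 to 0.503 (STAG1), −0.445 to −0.212 (STAG2), −0.0406 to 0.281 (SMC1A) and −0.0196 to 0.107 (CTCF) for the log2 ratio of peak number, −1.57 to 0.490 for the SMC1A rank and −8.97 to 3.91 percentage points for the CTCF share of SMC1A, the sign for STAG1, SMC1A and CTCF turning where replicate 2 stood alone. The cause of these moves was not tested. The mean STAG2 number, rank and CTCF share kept their sign under the alternatives run, but with equal list lengths the STAG2 number was −0.0354 ± 0.0940 (SD, n = 2), 0.0310 in replicate 1 and −0.102 in replicate 2.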
